A study of Mus musculus with 15 samples.

Results

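S100a8, Camp, Ctsg and Csf3r, 4 of the 754 genes of a mouse myeloid immunity panel, were followed through cultures of bone marrow-derived macrophages (BMDMs). They were chosen by name as granule and granulocyte-lineage genes, with their levels in these same libraries already in view, so their levels and differences are given as a description and carry no test. RNA was counted on the NanoString nCounter system, in which colour-coded probes bind their target RNAs and are counted without amplification. All BMDMs were grown from mouse bone marrow with M-CSF, the growth factor that drives macrophage development, and the labels put 15 samples into 4 groups. The MPLA group (4 samples) had 4 days of 20 ng/mL monophosphoryl lipid A, a Toll-like receptor 4 agonist, as the M1-like standard. The IL4 group (4 samples) had 4 days of 20 ng/mL interleukin-4 as the M2-like standard. The IRF5-NP group (3 samples, numbered 1, 2 and 4) held BMDMs that, after the same IL-4 exposure, met nanoparticles (1 µg, for 1 h) loaded with mRNA of IRF5, a transcription factor of inflammatory macrophages. The eGFP-NP group (4 samples) held IL-4-treated BMDMs given nanoparticles with eGFP mRNA in the same way. The study's methods add that the IRF5 particles held mRNAs for the kinase IKKβ and an eGFP reporter too, that strongly transfected cells were sorted and put back in IL-4 before RNA was isolated, and they state a different nanoparticle amount. A sort of the MPLA and IL4 cells is not described, so nanoparticle and sort cannot be told apart when either nanoparticle group is set against IL4.

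Granulocytes store antimicrobial proteins and proteases in granules that are filled in a fixed order as the cells mature in the marrow. S100a8 encodes a subunit of calprotectin, a calcium- and zinc-binding protein abundant in the cytosol of neutrophils and also made by activated monocytes and macrophages. Camp encodes cathelicidin, the precursor of an antimicrobial peptide of secondary granules. Ctsg encodes cathepsin G, a serine protease of primary granules. Csf3r encodes the receptor for G-CSF, the cytokine that drives granulocyte production, and is also carried by monocytes.

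The sequences upstream of S100a8 and Camp are shown because these genes were high together in MPLA, and that of Csf3r because its levels ran in another order. Each is the 250 bases before the gene's start in RefSeq on the mouse build GRCm38.p6, read 5′ to 3′ along the gene's strand. They lie at chr3:90668821-90669070 (plus strand) for S100a8, chr9:109849457-109849706 (minus strand) for Camp and chr4:126024409-126024658 (plus strand) for Csf3r. Capitals mark matches on either strand to any of 5 motifs.
S100a8: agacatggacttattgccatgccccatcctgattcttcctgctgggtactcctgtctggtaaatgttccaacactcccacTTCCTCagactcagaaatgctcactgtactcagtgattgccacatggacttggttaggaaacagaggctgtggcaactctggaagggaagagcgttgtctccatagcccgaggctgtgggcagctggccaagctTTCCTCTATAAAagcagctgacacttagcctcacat
Camp: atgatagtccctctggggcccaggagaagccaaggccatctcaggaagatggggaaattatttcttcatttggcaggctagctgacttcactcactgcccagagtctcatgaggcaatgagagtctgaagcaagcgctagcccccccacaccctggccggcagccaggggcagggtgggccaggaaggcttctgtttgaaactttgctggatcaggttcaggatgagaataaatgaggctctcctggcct
Csf3r: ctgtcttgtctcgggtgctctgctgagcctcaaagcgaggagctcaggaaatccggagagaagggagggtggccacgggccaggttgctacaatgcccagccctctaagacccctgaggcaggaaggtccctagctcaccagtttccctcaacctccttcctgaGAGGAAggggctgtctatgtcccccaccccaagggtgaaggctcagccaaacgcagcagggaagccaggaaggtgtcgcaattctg
The motifs searched were TTGCNNAA (C/EBP), GAGGAA (the core bound by PU.1), GGANTTTCC (NF-kB), TGANTCA (AP-1) and TATAAA (the TATA box). S100a8 held GAGGAA on the opposite strand from 170 to 165 and from 36 to 31 bases before its start, the latter adjoining a TATAAA from 30 to 25 bases before the start. Csf3r held GAGGAA from 86 to 81 bases before its start, and the Camp window held no match to any of the 5. Of 32851 windows of the same length, 23.3% held GAGGAA, 12.4% TATAAA, 9.56% TTGCNNAA, 6.75% TGANTCA and 1.07% GGANTTTCC. A match describes letters in a window and not a bound site.

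The total gene count per library spanned 1618914 to 1784833 for MPLA and 1087549 to 1639968 for IL4. For the nanoparticle groups it spanned 266169 to 1510011 (IRF5-NP) and 738305 to 1524232 (eGFP-NP). A count was taken as above background where it exceeded the mean plus 2 SD of the 8 negative control probes of its own library, which put the threshold between 19.7 and 34.9 counts. Within groups, 5 of 21 pairs of libraries were nearly identical, taken as a chi-square per degree of freedom under 3 (MPLA 1 with 4, MPLA 2 with 3, IRF5-NP 1 with 2, eGFP-NP 1 with 2, eGFP-NP 3 with 4). The counts of eGFP-NP 1 and 2 did not differ detectably beyond sampling noise at the minimum count used, unlike those of the other 4 pairs, and they entered as 1 sample, so that 14 libraries were compared and eGFP-NP had n = 3. Nothing in the labels says that the samples came from separate cultures. The study's figure legend on these BMDMs states 5 biologically independent samples, which differs from the 3 or 4 per group here. Errors and p-values are therefore taken to cover only the spread between these libraries. Fibroblast genes set libraries apart: the mean of 7 of them (such as Col1a2 and Pdgfra) was 12.5 to 12.6 log2 CPM in MPLA, 10.9, 11.9, 4.65 and 10.1 in IL4 1 to 4, 4.13, 3.99 and 10.9 in IRF5-NP 1, 2 and 4, and 4.11, 3.87, 11.5 and 11.6 in eGFP-NP 1 to 4. Log2 CPM is the count relative to the TMM-scaled total of its library (counts per 1e6), on a log2 scale. Of 10 macrophage markers, 8 were above background in every library, among them Csf1r (832 to 10201 counts), Cd68 (2438 to 38680) and Adgre1 (1721 to 17744). Mertk was below background in IRF5-NP 4, at 14 counts, and Aif1 in all 15 libraries, at 4 to 17 counts.

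S100a8 and Camp were high in MPLA and near background nearly everywhere else. S100a8 counted 644, 293, 300 and 533 in MPLA 1 to 4 against 18, 27, 33 and 19 in IL4 1 to 4. It counted 82, 69 and 20 in IRF5-NP 1, 2 and 4, and 79, 73, 24 and 16 in eGFP-NP 1 to 4. All 4 MPLA libraries were above background and above every other library, whereas 1 of 4 IL4 libraries (IL4 2), 2 of 3 IRF5-NP libraries (1 and 2) and 2 of 4 eGFP-NP libraries (1 and 2) exceeded their thresholds. Camp counted 863, 340, 328 and 760 in MPLA and 27, 28, 15 and 23 in IL4. In the nanoparticle groups it counted 22, 11 and 34 in IRF5-NP and 21, 13, 86 and 61 in eGFP-NP. Camp was again above background in all 4 MPLA libraries, and otherwise in IL4 1 and 2, IRF5-NP 4 and eGFP-NP 3 and 4.

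Csf3r ran in a different order, present in both standards and at background in both nanoparticle groups. It counted 64, 79, 94 and 73 in MPLA and 83, 131, 180 and 49 in IL4, all above background, and the groups overlapped. It counted 24, 23 and 8 in IRF5-NP and 17, 14, 13 and 16 in eGFP-NP, below background in all 7 libraries. At the IL4 geometric mean of 75.7 CPM, 6 of these 7 libraries would have given at least 66.7 counts, but IRF5-NP 4, with its low total, would have given 35.5 against a threshold of 32.4. At the MPLA geometric mean of 40.5 CPM that library would have given 19.0 counts, so a Csf3r level like that of MPLA was not detectable in IRF5-NP 4.

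Ctsg never exceeded background. It counted 10, 9, 18 and 15 in MPLA, 10, 8, 11 and 12 in IL4, 23, 22 and 22 in IRF5-NP and 21, 14, 7 and 11 in eGFP-NP. Its values give upper limits and no order between groups, and any fitted difference of Ctsg is one between background counts.

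**Figure D1:**
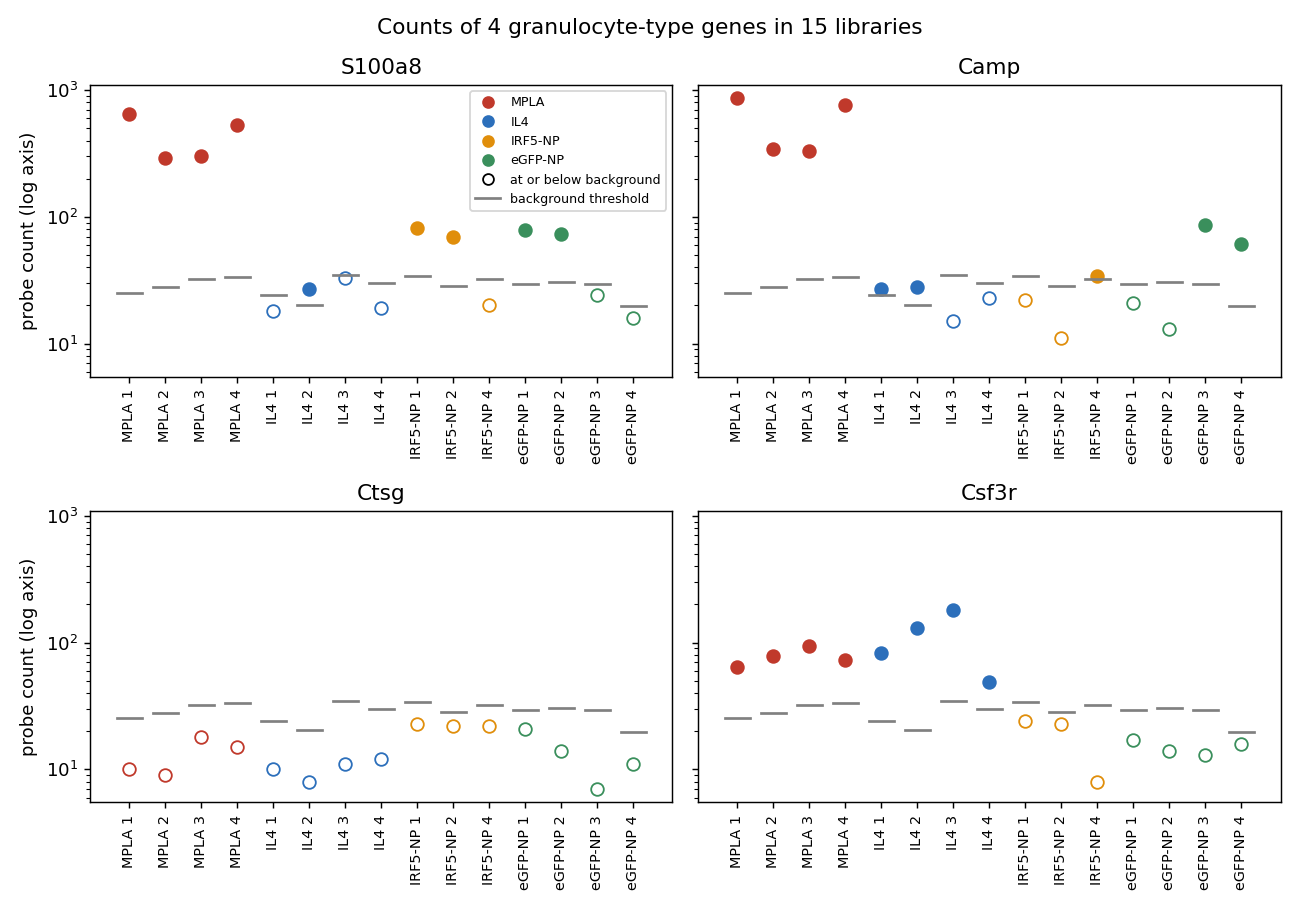
Probe counts (log axis) of S100a8, Camp, Ctsg and Csf3r in each of the 15 libraries, coloured by group; open circles are at or below the library's background threshold, drawn as a grey dash. S100a8 and Camp reach 293 counts or more in the MPLA libraries only, Csf3r is above background in MPLA and IL4, and Ctsg is below background in all 15.

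On the log2 CPM scale, the S100a8 level was 7.82 ± 0.54 (SD, n = 4) in MPLA, 5.91 ± 0.37 (n = 3) in IRF5-NP, 5.02 ± 0.96 (n = 3) in eGFP-NP and 4.31 ± 0.56 (n = 4) in IL4. The IRF5-NP and eGFP-NP levels overlapped, as did those of eGFP-NP and IL4. IRF5-NP 1 and 2 entered these means as separate libraries, whereas eGFP-NP 1 and 2 entered as 1. Camp was 8.14 ± 0.70 (SD, n = 4) in MPLA, 5.55 ± 1.30 (n = 3) in eGFP-NP, 4.72 ± 1.38 (n = 3) in IRF5-NP and 4.25 ± 0.35 (n = 4) in IL4. The last 3 of these overlapped. Csf3r was 6.30 ± 1.02 (SD, n = 4) in IL4, 5.42 ± 0.24 (n = 4) in MPLA, 4.41 ± 0.15 (n = 3) in IRF5-NP and 4.02 ± 0.26 (n = 3) in eGFP-NP, where the 2 standards overlapped and both nanoparticle levels lay at background.

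The first comparison asks how the M1-like and M2-like standards differ. The fitted log2 difference of MPLA over IL4 was 4.09 ± 0.42 (SE) for Camp and 3.63 ± 0.40 for S100a8. With the IL4 libraries at background set to their thresholds, Camp was at least 12.0-fold and S100a8 at least 9.98-fold higher in MPLA, bounds set by IL4 groups with 2 and 1 of 4 libraries above background. Csf3r was lower in MPLA by a fold of 1.87 between geometric means (log2 difference −1.10 ± 0.45), within overlapping groups. Ctsg gave −0.18 ± 0.28 at background. The groups did not overlap for S100a8 and Camp, 2 of the 4 genes, beside 37.3% of all genes. The genes were chosen with these levels in view, so nothing is read from such counts in any comparison. With the fibroblast gene mean as a covariate the differences were 4.06 ± 0.49 for S100a8, 3.84 ± 0.56 for Camp and −0.51 ± 0.48 for Csf3r. That mean was 12.5 to 12.6 log2 CPM in MPLA and 4.65 to 11.9 in IL4, with no shared range. The fit therefore extrapolates and cannot tell MPLA and fibroblast content apart.

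Against IL4, the IRF5-NP libraries gave a log2 difference of 1.51 ± 0.41 (SE) for S100a8, 0.79 ± 0.67 for Camp, −2.30 ± 0.61 for Csf3r and 1.72 ± 0.44 for Ctsg. The scaled values of the groups did not overlap for 3 of the 4 genes, S100a8 (higher), Csf3r (lower) and Ctsg, beside 8.75% of all genes, but those of Ctsg were all below background and give no order. For S100a8 this order rested on scaling, since the 20 counts of IRF5-NP 4 were below background and came to 5.46 log2 CPM only through its low total, against 5.02 for the 33 counts of IL4 3. Csf3r was at least 2.03-fold higher in IL4 than in IRF5-NP between geometric means. All its IRF5-NP counts were below background. The 29.4 CPM of Csf3r in IL4 4 lay at the threshold of IRF5-NP 1 (29.4 CPM) and under that of IRF5-NP 4 (69.1 CPM). A level like that of IL4 4 was thus not clearly detectable there, and the lower order against IL4 4 rests on background counts. The Camp difference turned to −0.43 without IRF5-NP 4, the only library of its group with Camp above background.

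The eGFP-NP libraries against IL4 gave a log2 difference of −2.73 ± 0.62 (SE) for Csf3r, 1.50 ± 0.57 for Camp, 0.80 ± 0.54 for S100a8 and 0.43 ± 0.35 for Ctsg. Of the 4 genes, 1 (Csf3r) had groups that did not overlap, beside 11.9% of all genes. Without eGFP-NP 1 and 2 the S100a8 difference was 0.11, and subtracting the negative controls made it 1.51 and that of Camp 2.77. Csf3r was at least 2.98-fold higher in IL4 than in eGFP-NP. The 2 nanoparticle comparisons share the IL4 libraries, so their Csf3r differences are set side by side and do not count as separate evidence.

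The comparison of IRF5-NP with eGFP-NP sets the cargoes against each other on the same kind of particle. The log2 differences were 0.71 ± 0.55 (SE) for S100a8, −0.61 ± 1.02 for Camp, 0.44 ± 0.28 for Csf3r and 1.36 ± 0.59 for Ctsg, the last 2 between background counts. IRF5-NP 1 and 2 entered as 2 libraries and eGFP-NP 1 and 2 as 1. Libraries with a low fibroblast gene mean thus weighed more in IRF5-NP. In those libraries S100a8 was 71.1 and 62.4 CPM (IRF5-NP 1 and 2) and 70.0 and 62.4 CPM (eGFP-NP 1 and 2). It was 42.7 CPM in IRF5-NP 4 and 23.0 and 18.1 CPM in eGFP-NP 3 and 4, all below background. Of the 4 genes, 1 (Ctsg, below background throughout) had groups that did not overlap, beside 14.7% of all genes. With the replicate number as a block, a pairing assumed from the labels, the differences were 0.26 for S100a8, −0.08 for Camp, 0.38 for Csf3r and 0.80 for Ctsg.

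**Figure D2:**
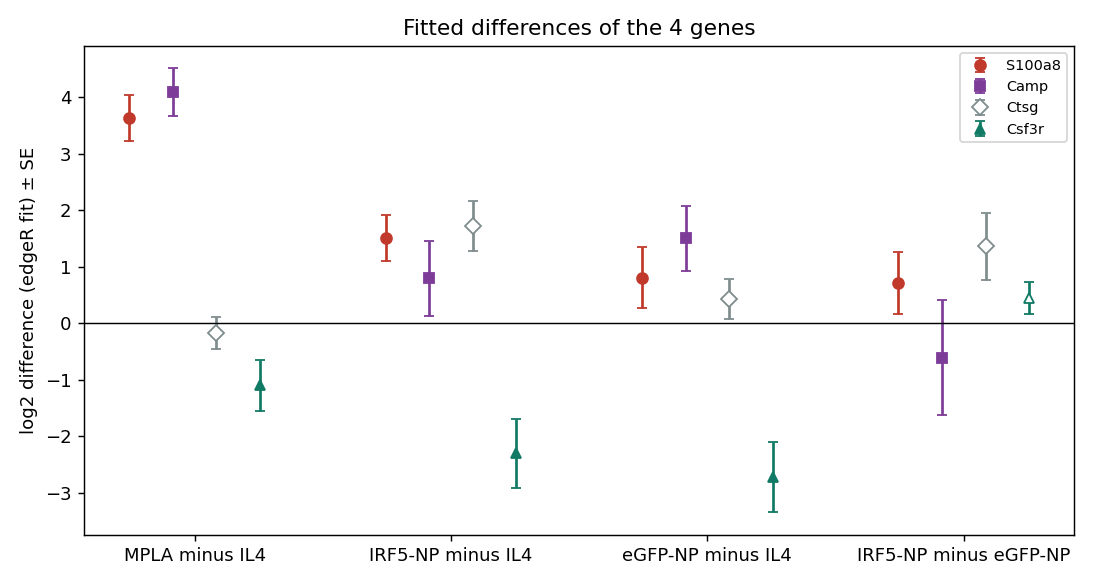
Fitted log2 differences ± SE of the 4 genes in the 4 comparisons (edgeR); open symbols mark a gene at or below background in every library of both groups. S100a8 (3.63) and Camp (4.09) lie highest in MPLA over IL4, and Csf3r lies lowest in the nanoparticle groups over IL4 (−2.30 and −2.73).

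Among the nanoparticle libraries, S100a8 and Camp were detected in different libraries of each group. S100a8 was above background in the 4 libraries whose fibroblast gene mean was 3.87 to 4.13 log2 CPM (IRF5-NP 1 and 2, eGFP-NP 1 and 2) and in none of the other 3. Camp was above background in those other 3, whose fibroblast gene mean was 10.9 to 11.6 log2 CPM (IRF5-NP 4, eGFP-NP 3 and 4). Both cargoes occurred on both sides of this split. It also fell along the replicate numbers, with 1 and 2 apart from 3 and 4. IRF5-NP 1 and 2, eGFP-NP 1 and 2, and eGFP-NP 3 and 4 are nearly identical pairs, so these libraries do not count as independent. Camp in IRF5-NP 4 passed narrowly, at 34 counts against a threshold of 32.4. The background threshold of IRF5-NP 4 was 69.1 CPM, above the 62.4 CPM of S100a8 in IRF5-NP 2 and eGFP-NP 2, so such a level of S100a8 was not detectable in IRF5-NP 4. In IL4, the only library with a low fibroblast gene mean, IL4 3 (4.65 log2 CPM), had the highest S100a8 level of its group (5.02 log2 CPM, against 3.69 to 4.36 in the others). Its 33 counts lay under a threshold of 34.9, whereas the 27 counts of IL4 2 exceeded one of 20.3. Camp followed the split in IL4 only in part. It was above background in the fibroblast-high IL4 1 and 2 (4.64 and 4.41 log2 CPM) and at background in IL4 3 (3.96 log2 CPM). In the fibroblast-high IL4 4 it was at background too (3.94 log2 CPM). The macrophage marker mean was 11.0 to 11.1 log2 CPM in the fibroblast-low and 9.55 to 9.67 in the fibroblast-high nanoparticle libraries. In these bulk samples fewer cells of a type and less RNA per cell cannot be told apart, and the part of either cell type in the levels of these genes was not tested within the nanoparticle groups.

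**Figure D3:**
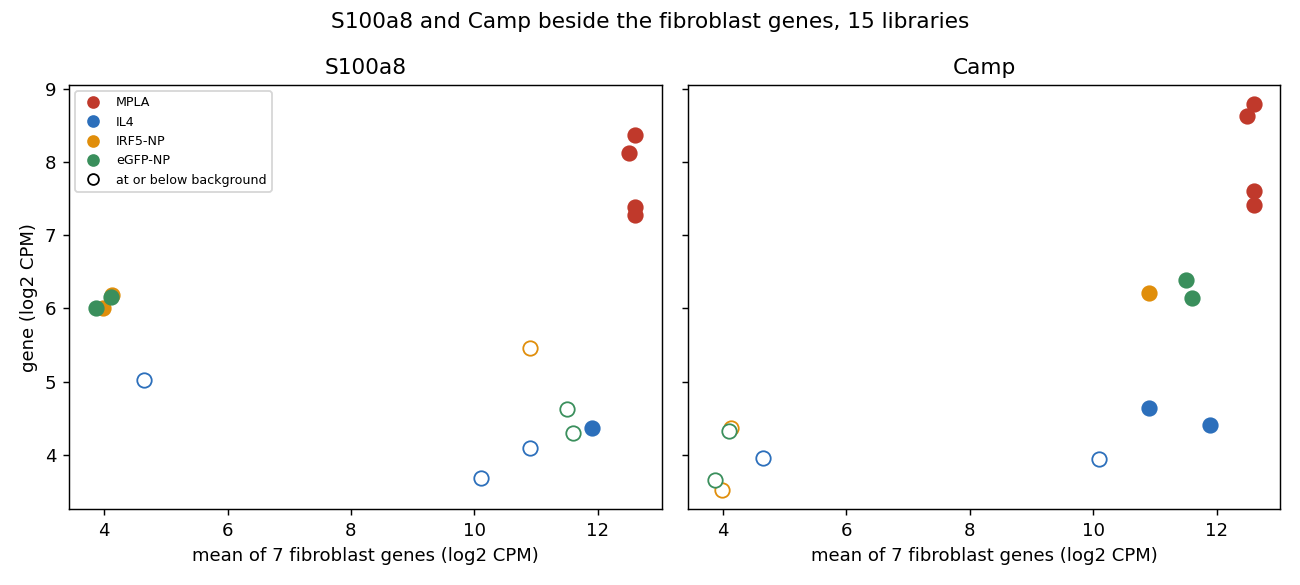
Levels of S100a8 and Camp (log2 CPM) against the mean of 7 fibroblast genes (log2 CPM) in the 15 libraries; open circles are at or below background. The nanoparticle libraries with S100a8 above background have a fibroblast mean of at most 4.13, and those with Camp above background one of at least 10.9.

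Within MPLA, S100a8 and Camp separated the 2 nearly identical pairs of libraries. The geometric mean of MPLA 1 and 4 was 2.30 times that of MPLA 2 and 3 for Camp and 1.88 times for S100a8. These ratios ranked 4 and 7 among the 550 genes above background in all 4 MPLA libraries, from the largest down. The matrix protease gene Mmp9 (1.59), the formyl peptide receptor gene Fpr1 (1.47) and the activating receptor gene Trem1 (1.45) ran the same way, whereas Csf3r ran the other way (0.764). The other granulocyte-type genes above background in all 4 MPLA libraries had smaller ratios, from 0.962 (Selplg) to 1.43 (Fpr2), with Mmp8 at 1.14. Each pair was nearly identical over all genes, so these ratios compare 2 pairs and not 4 independent libraries.

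The remaining granulocyte genes of the panel were taken as 5 lists covering granule proteins, calprotectin, receptors and transcription factors. Of 43 genes listed, 25 were on the panel, and 21 of these were not among the 4 described above. S100a9, the calprotectin partner of S100a8, counted 5 to 26 in the 15 libraries and was above background in none, the MPLA libraries included. Because probes bind with different efficiency, this gives a limit for S100a9 and no ratio of S100a9 to S100a8. Mpo (myeloperoxidase) and Elane (neutrophil elastase), the other primary granule genes, were above background only in IL4 2, at 28 and 50 counts. Ly6g, the surface marker that defines mouse neutrophils, counted 4 to 19 and exceeded background in no library, and the chemokine receptor gene Cxcr1 did not either. Cxcr2, the other receptor gene for neutrophil chemokines, counted 4 to 32 and was above background only in eGFP-NP 1 and 2, at 32 and 31 counts. Of 7 neutrophil markers 5 were on the panel, and their summed level was 222.0 to 250.5 CPM for MPLA, 65.7 to 461.5 for IL4, 134.4 to 259.4 for IRF5-NP and 123.6 to 458.7 for eGFP-NP. The MPLA range thus lay inside that of IL4.

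Mmp8, the neutrophil collagenase, gave more of this summed probe signal than the other 4 markers together in 13 of the 15 libraries (not in IL4 1 and 2). The sum thus mostly follows 1 probe beside background counts, and it gives no ratio between transcripts. It counted 347 to 427 in MPLA, 20, 6, 442 and 168 in IL4, 209, 238 and 33 in IRF5-NP and 449, 466, 79 and 73 in eGFP-NP. Mmp8 was high in 1 IL4 library and at background in 2 others, and its MPLA and IL4 groups overlapped (log2 difference 0.68 ± 1.05, adjusted p = 0.656).

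In MPLA over IL4, 5 of the 21 list genes were called higher by edgeR (Benjamini-Hochberg adjusted p under 0.05), 4 lower and 12 did not pass, beside 26.4% of all genes called, 12.2% higher and 14.2% lower. Their median log2 difference was −0.48, beside −0.05 over all 754 genes. Fpr1, a receptor by which phagocytes sense bacterial formyl peptides, counted 860, 542, 498 and 745 in MPLA and 11, 28, 18 and 16 in IL4. Its relative Fpr2 counted 1374, 864, 869 and 1230 in MPLA and 17, 146, 17 and 11 in IL4. Trem1, an amplifier of Toll-like receptor signals on phagocytes, counted 164, 114, 106 and 174 in MPLA and 6, 16, 11 and 7 in IL4. In all 3 every MPLA library exceeded every IL4 library. Fpr1 rose by a log2 difference of 4.67 ± 0.34 (SE; adjusted p = 0.000103), at least 15.3-fold with the IL4 libraries at background set to their thresholds. Fpr2 rose by 4.05 ± 0.84 (adjusted p = 0.0117), at least 16.7-fold, and Trem1 by 3.27 ± 0.36 (adjusted p = 0.000702), at least 3.51-fold. The complement receptor gene C5ar1 (log2 difference 1.52 ± 0.30, adjusted p = 0.00933) and Mmp9 (1.39 ± 0.35, adjusted p = 0.0237) also rose.

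Chil3, which encodes the chitinase-like protein Ym1 of neutrophil granules and IL-4-treated macrophages, fell. It counted 10, 12, 14 and 12 in MPLA, all below background, and 1258, 13, 2821 and 756 in IL4, so 1 IL4 library was at background too. It was at least 21.2-fold higher in IL4 with the MPLA libraries at their thresholds, and its fitted log2 difference (−7.31 ± 1.42, adjusted p = 0.00918) is one against background counts. The leukotriene B4 receptor gene Ltb4r1 was lower too, at least 1.73-fold (fitted −1.33 ± 0.34, adjusted p = 0.0237), with all 4 MPLA libraries below background. The selectin ligand gene Selplg (−1.14 ± 0.27, adjusted p = 0.0199) was lower with all 8 libraries above background. The fourth lower call, Ly6g (−0.71 ± 0.16, adjusted p = 0.0334), is one between background counts. The transcription factor genes Cebpa (−1.02 ± 0.40, adjusted p = 0.0973) and Cebpb (0.42 ± 0.25, adjusted p = 0.245) did not pass. The 9 calls became 5 without MPLA 1, without MPLA 2 or without MPLA 4, each time losing Mmp9, Ltb4r1, Selplg and Ly6g. They became 2, Fpr1 and Trem1, when the nearly identical pairs were merged. In each of the other 3 comparisons 0 of the 21 genes were called by edgeR or by DESeq2, beside 0% of all genes by edgeR. At an unadjusted p under 0.05 there were 1 of the 21 and 53 of all genes in IRF5-NP over IL4, 3 and 84 in eGFP-NP over IL4, and 1 and 42 in IRF5-NP over eGFP-NP. DESeq2 called 19, 56 and 6 of all genes in these comparisons.

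**Figure D4:**
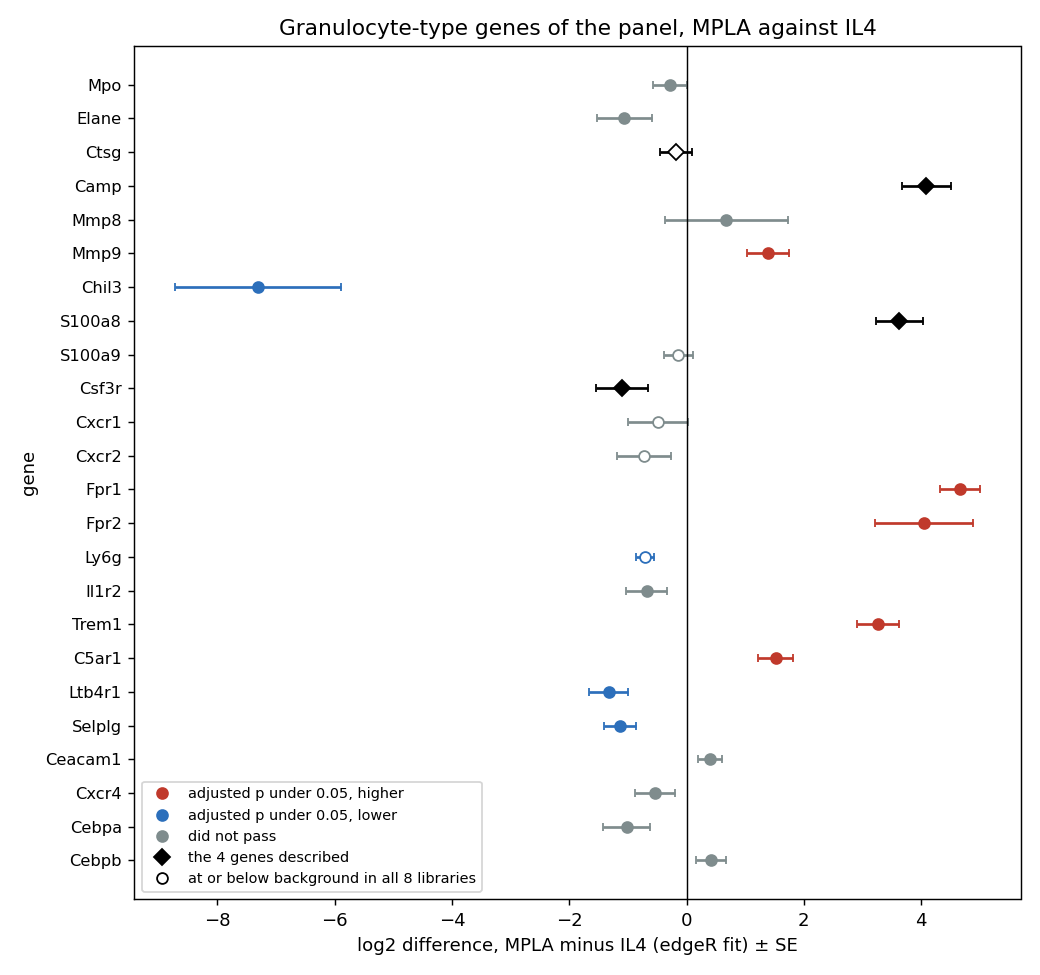
Log2 differences ± SE of MPLA over IL4 (edgeR) for 24 of the 25 granulocyte-type genes on the panel; red and blue circles passed an adjusted p of 0.05, grey circles did not, black diamonds are the 4 genes described and are not marked by a test, and open symbols were at or below background in all 8 libraries. Fpr1 (4.67), Camp (4.09), Fpr2 (4.05) and S100a8 (3.63) lie farthest right and Chil3 (−7.31) farthest left, while S100a9 (−0.14) and Mpo (−0.29) lie near 0.

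Partners of these genes, their ligands, upstream receptors and the neutrophil-attracting chemokines, were on the panel for 8 of 15 listed. Csf3, which encodes the G-CSF that binds the Csf3r product, counted 14 to 28 in MPLA and 16 to 21 in IL4, above background only in MPLA 1, so its log2 difference (−0.29 ± 0.28, adjusted p = 0.474) is one between background counts. The neutrophil chemokine genes Cxcl2 (log2 difference 4.28 ± 0.30, adjusted p = 7.83e-05), Cxcl5 (4.24 ± 0.80, adjusted p = 0.00817) and Cxcl1 (3.98 ± 0.75, adjusted p = 0.00817) rose in MPLA. With IL4 libraries at background set to their thresholds, the rises were at least 16.3-fold for Cxcl2 (2 of 4 IL4 libraries at background), 27.9-fold for Cxcl5 and 21.4-fold for Cxcl1 (1 of 4 each). Cxcl5 and Cxcl1 were at background in each of the 5 libraries with a low fibroblast gene mean, IL4 3 included, and above it in the other 10, and each call was kept in 17 of 20 alternative settings (adjusted p up to 0.235). A fibroblast covariate was among these settings, but MPLA and IL4 share no range of the fibroblast gene mean. The part of fibroblasts in these rises therefore cannot be told apart from that of MPLA. Cxcl2 counted 1024, 594, 631 and 977 in MPLA and 18, 40, 24 and 36 in IL4, with no overlap. Cd14, the co-receptor of Toll-like receptor 4, rose by 2.53 ± 0.28 (adjusted p = 0.000702). Tlr4, the receptor of MPLA and of the S100a8 product, was lower by a log2 difference of −0.68 ± 0.19 (adjusted p = 0.0349), a call kept in 10 of 20 alternative settings (adjusted p up to 0.253). Cxcl3 (0.98 ± 1.16, adjusted p = 0.565) and Stat3 (0.37 ± 0.28, adjusted p = 0.366), the main signal transducer below the G-CSF receptor, did not pass. The 4 rises and 1 fall among 8 genes stand beside 12.2% and 14.2% of all genes, and the list's median of 1.75 beside −0.05 for all genes.

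Genes most like each of the 4 in pattern were found by Pearson's r of log2 CPM over the 14 libraries, among 598 genes above background in at least 3 of them. The libraries share their groups and include nearly identical pairs, so these correlations describe the pattern only. Closest to S100a8 were Trem1 (r = 0.963), C5ar1 (0.929) and Cd14 (0.895). Closest to Camp were the matrix protease gene Adamts4 (0.956), Fpr1 (0.953) and the fibroblast growth factor gene Fgf10 (0.941). Over the 10 libraries outside MPLA, r was 0.876, 0.794 and 0.510 for S100a8 with Trem1, C5ar1 and Cd14, and 0.921, 0.851 and 0.790 for Camp with Adamts4, Fpr1 and Fgf10. However, S100a8, Camp, Trem1, Adamts4, Fpr1 and Fgf10 were at background in most of these libraries. Adamts4 counted 196 to 219 in MPLA and 9 to 52 elsewhere, and Fgf10 counted 359 to 826 in MPLA and 5 to 65 elsewhere. Closest to Csf3r were the protease gene Mmp19 (0.893), the TNF receptor family gene Tnfrsf14 (0.861) and the MHC class I gene H2-Q1 (0.821), with 0.912, 0.868 and 0.852 outside MPLA. Outside MPLA, Csf3r was below background in every nanoparticle library. Mmp19 counted 420 to 1472 in IL4 and 567 to 770 in MPLA, against 91 to 239 with IRF5-NP and 194 to 327 with eGFP-NP. S100a8 and Camp gave an r of 0.707 over the 14 libraries and −0.231 over the 10 outside MPLA, where both genes were mostly at background. No pattern is given for Ctsg, which was never above background.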

How the data were processed

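RNA from 15 BMDM samples was counted on the NanoString nCounter Myeloid Innate Immunity panel. The authors deposited raw whole-number probe counts for 768 probes (754 genes, 6 positive and 8 negative controls). The methods name a quality check, scaling to housekeeping genes on a log2 scale and t-tests adjusted by Benjamini-Yekutieli. The deposited whole-number counts were not scaled or logged, and whether the quality check removed libraries is not given in the sources used here. Groups and replicate numbers came from the labels. Lane and cartridge were not given in the sources used here.

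The 4 genes, the gene lists and the tests were chosen with earlier results of these data known. The test was the quasi-likelihood F test of edgeR (edgeR 4.0.16, limma 3.58.1, DESeq2 1.42.0, R 4.3.3) on the 2 groups alone, with TMM scaling, no filter on low counts and Benjamini-Hochberg adjustment over 754 genes at 0.05, two-sided; standard errors are the size of the log2 difference over the root of F. Log2 CPM used a prior count of 2. eGFP-NP 1 and 2 (chi-square per degree of freedom 1.09, p = 0.0817, taken over genes whose summed count reached 40) were summed. That p was 0.111 at a minimum of 10 and 0.0162 at 100, so the merge depended on the minimum. At-least folds set each library at background in the lower group to its threshold and left the higher group's counts as they were, and counting alone limits the precision of counts near it.

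Genes named were the 4 genes, S100a9, Mpo, Elane, Mmp8, Mmp9, Cxcr2, Fpr1, Fpr2, Csf3 and Tlr4, up to 4 called genes per list with the largest non-overlapping differences, and the 3 genes most correlated with each of the 4; other genes were named after their values were seen, and some results are not reported here. Same-numbered IRF5-NP and eGFP-NP libraries deviated together from their group means (r = 0.823, 0.821 and 0.818 for numbers 1, 2 and 4), and the block took those numbers to pair. Differently numbered libraries were not correlated, and nearly identical libraries, such as IRF5-NP 1 and 2, would give much the same r. These values thus do not show that the numbers pair. Same-numbered libraries did not deviate together in this way with IL4. Gene names matched RefSeq symbols for 744 genes, synonyms for 9 and neither for 1. Promoter sequences are from RefSeq (GRCm38.p6). The test was run on simulated data first. Alternatives were other scalings, background subtraction, a filter on low counts, DESeq2, limma, the methods' t-test, all groups in one fit, the replicate block, merged pairs, a fibroblast covariate and leaving out each library.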

Additional observations from a re-analysis of the deposited data

How the results depend on the processing

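For MPLA over IL4, the 9 list genes called became 1 by the methods' t-test with Benjamini-Yekutieli adjustment, 2 with nearly identical pairs merged and 5 with a replicate block, a pairing that the deviations did not bear out for these groups. Leaving out each library gave 5 to 10 calls, with 5 without MPLA 1, MPLA 2 or MPLA 4, and the remaining alternatives gave 6 to 11. In the other 3 comparisons the count was 0 under every one of 19, 20 and 19 alternatives, the replicate block included. The directions of S100a8 (3.28 to 4.98) and Camp (3.69 to 5.63) in MPLA over IL4 were the same in 20 of 20 alternatives, with the highest values after subtracting the negative controls. Csf3r ran from −1.49 to −0.51 there, from −4.28 to −1.72 in IRF5-NP over IL4 and from −5.63 to −2.13 in eGFP-NP over IL4. In eGFP-NP over IL4, S100a8 ran from 0.11 to 1.51 and Camp from 0.82 to 2.77. Camp changed sign in IRF5-NP over IL4 (−0.43 to 1.49) and over eGFP-NP (−1.96 to 0.15), and the cause was not tested. Counts near the background threshold, and the low total of IRF5-NP 4, limit what can be said of Ctsg, S100a9 and Csf3r in the nanoparticle groups.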

Other observations

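Markers of other cell types on the panel were compared in MPLA over IL4 by the same edgeR test. Of 6 eosinophil genes, 4 (Epx, Prg2, Prg3 and Il5ra) were above background in no library, and Siglecf, carried by eosinophils and some macrophages, was lower (log2 difference −2.34 ± 0.69, adjusted p = 0.0388) with overlapping groups, a call kept in 6 of 20 alternative settings. Of 9 basophil and mast cell genes, 5 were above background in no library and 0 passed by edgeR, with 1 at an unadjusted p under 0.05. Gata2, a transcription factor of mast cells, basophils and progenitors, counted 345, 279, 315 and 356 in MPLA and 46, 51, 19 and 205 in IL4 (1.64 ± 0.55, adjusted p = 0.0555). The monocyte chemokine receptor gene Ccr2 was at least 6.45-fold lower (fitted −3.46 ± 0.74, adjusted p = 0.0135; 3 of 4 MPLA libraries at background; called in 15 of 20 alternatives), at 24, 25, 35 and 19 counts in MPLA against 74, 514, 174 and 49 in IL4.

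Among the macrophage genes, Adgre1 rose (1.05 ± 0.23, adjusted p = 0.0138; called in 10 of 20 alternatives) and the mannose receptor gene Mrc1 was lower (−2.92 ± 0.64, adjusted p = 0.0143; called in 14 of 20). Among 4 early myeloid and cycling genes, 1 was called, Flt3 (−0.85 ± 0.27, adjusted p = 0.0488; called in 3 of 19 alternatives), a difference between background counts in all libraries but IL4 2, at 15 to 25 counts in MPLA and 18 to 39 in IL4. None of 7 fibroblast genes passed by edgeR, although 6 of them had no overlap between groups, all higher in MPLA, and 2 had an unadjusted p under 0.05. The B-cell gene Ms4a1, the only lymphocyte gene listed that was on the panel, did not pass (−0.48 ± 0.20, adjusted p = 0.108). Of 15 housekeeping genes, 1 was called, Tbp (0.64 ± 0.20, adjusted p = 0.0499).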
